A study of Hyacinthus orientalis with 189 samples.

Results

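A set of 184 of the 494326 unigenes in the hyacinth (*Hyacinthus orientalis*) perianth transcriptome carried a Swiss-Prot description with the words gibberellin, ent-kaurene, ent-copalyl or DELLA, and these 184 were followed over flower stage, perianth partition and cultivar. By the same descriptions, 90 were assigned to gibberellin metabolism, 71 to gibberellin reception and signalling, and 23 to the gibberellin-regulated (GASA, or snakin-like) proteins. The words of the descriptions alone chose them, though earlier results of these data were already known. The 184 unigenes matched only 50 different Swiss-Prot entries and had a median length of 793.5 bases, so that several unigenes may be pieces, alleles or close copies of a single gene, and the reads of such copies may have been split among them.

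Perianths of 7 cultivars were sampled at 3 stages, each from 3 flowers, and each flower was divided into 3 partitions, which gave poly-A RNA-Seq libraries of each partition of 63 flowers. The stages were green buds (Stage B), coloured buds (Stage C) and full anthesis (Stage A), with 21 flowers each. The partitions were the perianth tube, the outer perianth lobes and the inner perianth lobes, with 63 libraries each. The cultivars were ‘Jan Bos’ (red), ‘Pink Pearl’ (pink), ‘Gipsy Queen’ (orange), ‘City of Haarlem’ (yellow), ‘China Pink’ (pinkish white), which is a sport of ‘Delft Blue’ (blue), and ‘Peter Stuyvesant’ (dark purple). All bulbs were vernalised in the cold and flowered outdoors in a single season, and stamens and pistils had been removed from every flower with forceps. A bulb cultivar is propagated vegetatively, so the flowers of a cultivar sample a single genotype, and the labels do not say whether the 3 flowers came from different bulbs. All bulbs had been dipped in a fungicide before storage, and no other treatment was given to any group.

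Gibberellins are diterpenoid growth hormones. Ent-copalyl diphosphate synthase, ent-kaurene synthase and the cytochrome P450s ent-kaurene oxidase and ent-kaurenoic acid oxidase build the skeleton, gibberellin 20-oxidases and 3-oxidases complete the active hormone, and gibberellin 2-oxidases inactivate it. The receptor GID1 binds the hormone and then targets the DELLA repressors for degradation, and many GASA genes, which encode small cysteine-rich secreted peptides, respond to the hormone. In flowers of Arabidopsis, rice and petunia the pathway is known for its part in the elongation of floral organs and the growth and colouring of petals.

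The libraries held 12602472 to 20175882 expected counts, with a median of 13822438, and summed over its 3 partitions a flower held 39221823 to 48957667. Of the 184 unigenes, 157 had enough counts to be tested across flowers (at least 10 counts in at least 3 flowers): all 23 GASA, 64 of 71 signalling and 70 of 90 metabolism unigenes. Levels are given as FPKM, the fragments assigned to a unigene scaled by its length and by the library's total, and the level of a flower is the mean of its 3 partitions. Mean FPKM over all libraries was 1 or more for 83 of the 184, namely 19 GASA, 44 signalling and 20 metabolism unigenes. Class B floral homeotic genes, markers of a petaloid perianth, were detected in every partition and stage. Their summed level was lowest in the second Stage A flower of ‘Gipsy Queen’, at 270 FPKM, against 746 FPKM in the next lowest Stage A flower, and results that turn on that flower are given without it as well. In whole tissue, fewer cells of a type and less RNA per cell cannot be told apart.

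Fold changes below are on the log2 scale and come from edgeR's quasi-likelihood test on counts, with Benjamini-Hochberg adjustment over all unigenes tested and ± giving the standard error. A unigene was called upregulated or downregulated at an adjusted p below 0.05 and an absolute log2 fold change above 1. The test scales libraries by TMM (trimmed mean of M-values), and these factors were 0.788 to 0.915 in Stage A flowers and 1.11 to 1.58 in Stage B flowers. For this reason the fitted fold changes against Stage B run higher than the ratios of FPKM, which rest on library totals. The median of all unigenes for Stage A against Stage B was -0.27 under TMM and -0.8 under library totals, and a call that was lost or a direction that turned under totals is named where it is given.

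The stage comparisons asked which unigenes of the pathway changed as buds coloured and opened. Between Stage A and Stage B, 26 of the 157 unigenes tested were upregulated and 30 downregulated, against 13.5% and 18.0% of all unigenes tested. Their median log2 fold change was 0.04. The 3 groups differed in their split: 10 of 23 GASA unigenes were upregulated and 3 downregulated (median 0.88), 9 and 9 of 64 signalling unigenes were called (median 0.23), and 7 and 18 of 70 metabolism unigenes (median -0.23). Under library totals the split over the 157 was 14 upregulated and 42 downregulated, with 9 and 3 for GASA, 0 and 16 for signalling and 5 and 23 for metabolism, while all unigenes had 22.3% of their calls upregulated under totals and 42.9% under TMM. The 184 unigenes are not replicates of a condition, and the counts describe this set.

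Between Stage C and Stage B, 15 unigenes were upregulated and 22 downregulated, against 7.70% and 14.8% of all unigenes, with a median of -0.15. The GASA group had 10 upregulated and 0 downregulated, the signalling group 1 and 3, and the metabolism group 4 and 19. Between Stage A and Stage C, 24 were upregulated and 9 downregulated, against 6.64% and 4.38%, with a median of 0.06. Here the GASA group had 9 and 3, the signalling group 8 and 3, and the metabolism group 7 and 3. The 3 stage comparisons share flowers, so their counts are not independent of each other.

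The GASA genes had the highest median summed level of the 3 groups at each stage. At Stage B their range overlapped the 488 to 820 FPKM of the signalling group. The summed FPKM of the 23 GASA unigenes per flower had a lowest, median and highest value of 443, 967 and 1830 at Stage B, 747, 2070 and 9200 at Stage C, and 1540, 4070 and 14600 at Stage A. The 71 signalling unigenes summed to medians of 545, 403 and 467 FPKM at Stages B, C and A, and the 90 metabolism unigenes to 124, 63.8 and 75.2 FPKM. The makeup of the GASA group also changed. A single unigene, GASA12 (Cluster-20417.237039), made up 3.18% of the summed mean GASA FPKM at Stage A, against 77.9% at Stage B. At Stage A the GASA1 unigenes Cluster-20417.159590, Cluster-20417.157280 and Cluster-20417.331523 held 23.7%, 17.4% and 14.1%.

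**Figure D1:**
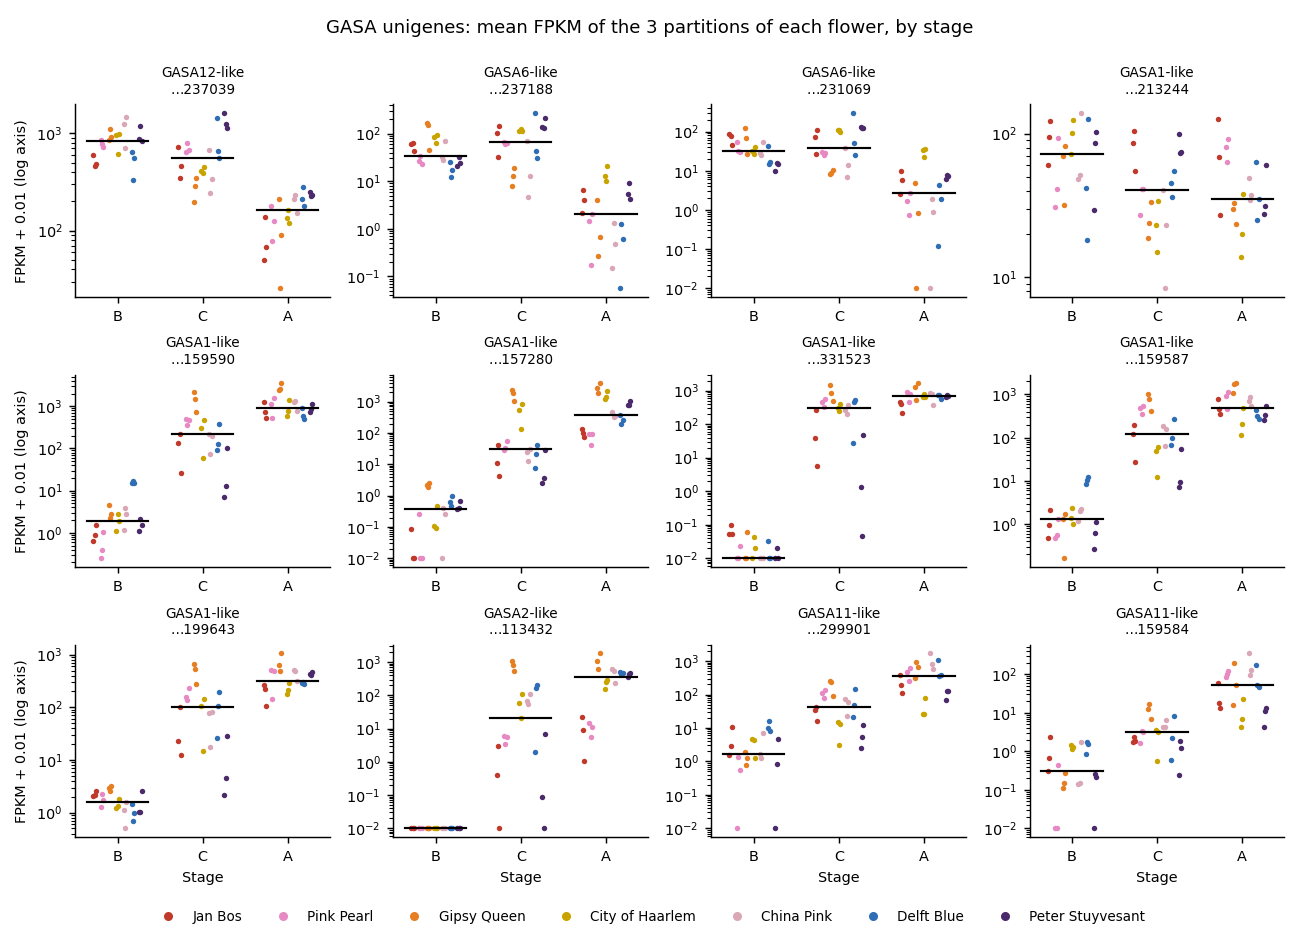
FPKM per flower of 12 GASA unigenes at Stages B, C and A on a log axis, with 0.01 added to each value. Points are flowers coloured by cultivar and lines are medians over 21 flowers. The GASA12 unigene Cluster-20417.237039 and the GASA6 unigenes Cluster-20417.237188 and Cluster-20417.231069 had their lowest medians at Stage A, while 8 of the others had theirs at Stage B.

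The GASA12 unigene Cluster-20417.237039 had 328, 830 and 1480 FPKM (lowest, median, highest of 21 flowers) at Stage B, 199, 559 and 1610 FPKM at Stage C and 25.6, 161 and 278 FPKM at Stage A. Every Stage A flower was below every Stage B flower. It was downregulated at Stage A against Stage B (-1.66 ± 0.155, edgeR adjusted p 1.91e-13) and against Stage C (-1.7 ± 0.155, adjusted p 1.29e-12). The other 2 downregulated GASA unigenes both matched GASA6, which in Arabidopsis acts in cell elongation at germination. Cluster-20417.237188 had median levels of 34, 66.9 and 2.01 FPKM at Stages B, C and A, and its log2 fold change was -3.63 ± 0.303 at Stage A against Stage B (adjusted p 4.23e-15). Cluster-20417.231069 had median levels of 32.1, 38.4 and 2.75 FPKM in the same order and a log2 fold change of -2.64 ± 0.289 (adjusted p 2.66e-11). For both, a few Stage A flowers reached the range of Stage B, with highest Stage A values of 20.6 and 35.5 FPKM against lowest Stage B values of 12.4 and 9.95 FPKM. At Stage C, Cluster-20417.237188 was upregulated against Stage B (1.05 ± 0.26), a call that was lost under median-ratio factors (0.9) and library totals (0.57).

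Most upregulated GASA unigenes were nearly silent in green buds. The GASA1 unigene Cluster-20417.331523 had 0, 0 and 0.09 FPKM at Stage B, 0.0367, 296 and 1460 FPKM at Stage C, and 211, 673 and 1660 FPKM at Stage A. It had 1242730 counts over the Stage A flowers and 28 over the Stage B flowers, a 46200-fold difference in summed CPM (counts scaled to the library's total). In Stage C flowers its level covered almost the whole range between those of the other stages. The edgeR log2 fold change was 16.66 ± 0.64 for Stage A against Stage B (adjusted p 2.14e-30) and 1.8 ± 0.317 for Stage A against Stage C. The GASA2 unigene Cluster-20417.113432 had 0 counts in all 21 Stage B flowers, 38551 at Stage C and 95988 at Stage A. Set against a floor of 3 counts over the Stage B flowers, its summed CPM were at least 13100-fold higher at Stage C and at least 33300-fold higher at Stage A. Its Stage A flowers spread from 1.02 to 1840 FPKM around a median of 368 FPKM.

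Other GASA unigenes followed the same order of stages. Cluster-20417.159590 (GASA1) had medians of 1.94, 219 and 911 FPKM at Stages B, C and A, Cluster-20417.157280 (GASA1) had 0.37, 31.6 and 362 FPKM, and Cluster-20417.159587 (GASA1) had 1.29, 124 and 488 FPKM. Cluster-20417.199643 (GASA1) had 1.57, 103 and 318 FPKM, Cluster-20417.299901 (GASA11) had 1.71, 43.7 and 349 FPKM, and Cluster-20417.159584 (GASA11) had 0.307, 3.16 and 52.7 FPKM. For each of these 6, and for Cluster-20417.331523 and Cluster-20417.113432, every Stage A flower was above every Stage B flower. The log2 fold changes of the 6 for Stage A against Stage B ran from 7.32 ± 0.351 for Cluster-20417.159584 to 11.32 ± 0.368 for Cluster-20417.157280 (edgeR adjusted p 5.6e-27 and 3.67e-33). A lower-level GASA1 unigene, Cluster-20417.87897, was upregulated as well (9.57 ± 0.697), with 6015 counts at Stage A and 6 at Stage B. The tenth, the GASA12 unigene Cluster-20417.275672, was called at 1.01 ± 0.375 (adjusted p 0.0213) and lost the call under median-ratio factors (0.87) and library totals (0.38). The neighbouring numbers of Cluster-20417.159584, Cluster-20417.159587 and Cluster-20417.159590 may mark related transcripts, whose reads cannot be told apart here.

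A further pair of GASA unigenes kept high levels without a call. Cluster-20417.213244 (GASA1) had medians of 71.6, 40.5 and 35.2 FPKM at Stages B, C and A, and Cluster-20417.214663 (GASA11) had 42.5, 28.2 and 26.2 FPKM. The best match of both in the Nr protein database was a gibberellin-regulated protein 9 of asparagus, and both differed between perianth partitions, as given further on.

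The gibberellin receptors moved together between coloured buds and open flowers. The 9 GID1 unigenes summed to medians of 52.2, 37.8 and 87.2 FPKM per flower at Stages B, C and A. At Stage A, 6 of the 8 GID1 unigenes tested were upregulated against Stage C and 0 were downregulated, with a median log2 fold change of 1.22, and 6 were upregulated against Stage B. Of all unigenes, 6.64% were upregulated at Stage A against Stage C and 13.5% against Stage B. The call against Stage B depended on scaling: under library totals 0 of the 8 were called and under median-ratio factors 4, while against Stage C 3 were called under totals.

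The most abundant receptor, the GID1A unigene Cluster-20417.236978, had 6.04, 19.8 and 50.7 FPKM at Stage B, 2.33, 11.7 and 46.8 FPKM at Stage C, and 11.9, 29.2 and 64.6 FPKM at Stage A. The flowers of the 3 stages overlapped widely, and Stage A was higher than Stage C in 7 of 7 cultivars. Its log2 fold change was 1.36 ± 0.164 for Stage A against Stage C. Against Stage B it was 1.18 ± 0.16 (edgeR adjusted p 9.11e-09), but 0.53 under library totals, and the summed CPM were 1.45-fold higher. Among the GID1C unigenes, Cluster-20417.231016 had medians of 12.1, 6.03 and 16.5 FPKM at Stages B, C and A, Cluster-20417.229461 had 10, 5.49 and 13.6 FPKM, and Cluster-20417.232500 had 8.14, 6.85 and 13.9 FPKM. All 3 were upregulated at Stage A against Stage C, by 1.45 ± 0.153, 1.31 and 1.01, and each was higher in 7 of 7 cultivars. The call of Cluster-20417.232500 was lost under library totals (0.86) and without the second Stage A flower of ‘Gipsy Queen’ (0.97). Without that flower the low-level GID1C unigene Cluster-20417.149832 also lost its call against Stage C, which left 4 of the 6.

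The DELLA calls between open flowers and green buds were all downward. Of 21 DELLA unigenes tested, 6 were downregulated and 0 upregulated at Stage A against Stage B, with a median log2 fold change of -0.4. Among all unigenes tested, 18.0% were downregulated and 13.5% upregulated, with a median of -0.27. Under library totals 10 were downregulated, where the median of all unigenes was -0.8. The 25 DELLA unigenes summed to medians of 216, 128 and 100 FPKM per flower at Stages B, C and A. The SLR1 unigene Cluster-20417.210145, named for the single DELLA gene of rice, had 12.6, 16.9 and 25.9 FPKM at Stage B, 2.02, 5.7 and 13.8 FPKM at Stage C, and 1.27, 2.35 and 5.83 FPKM at Stage A. All 21 Stage A flowers were below all 21 Stage B flowers. It was downregulated at Stage A (-2.06 ± 0.118, edgeR adjusted p 3.47e-21) and at Stage C (-1.18 ± 0.113, adjusted p 7.98e-13) against Stage B.

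The RHT-1 unigene Cluster-20417.242900, named for the wheat Green Revolution gene, had medians of 35.8, 13.3 and 7.64 FPKM at Stages B, C and A, and its Stage A flowers lay wholly below its Stage B flowers (-1.65 ± 0.103, edgeR adjusted p 1.17e-19). The other 4 downregulated DELLA unigenes were Cluster-20417.225297 (-2.02 ± 0.199), Cluster-20417.172888 (-1.83 ± 0.28), Cluster-20417.224129 (-1.42 ± 0.158) and Cluster-20417.226627 (-1.14 ± 0.189). Of these, Cluster-20417.225297, Cluster-20417.172888 and Cluster-20417.224129 were also downregulated at Stage A against Stage C, by 1.73, 1.49 and 1.06 on the log2 scale. The most abundant DELLA unigenes did not pass the fold threshold. The first, the DWARF8 unigene Cluster-20417.227360, named for the maize gene, had medians of 59, 31.8 and 28.8 FPKM with a log2 fold change of -0.4 ± 0.0661 at Stage A against Stage B, and it passed the threshold under library totals (-1.04). The RHT-1 unigene Cluster-20417.232019 had medians of 28, 22.2 and 21.2 FPKM, and its log2 fold change was 0.25 under TMM and -0.4 under library totals. A second SLR1 unigene, Cluster-20417.240560, went the other way in coloured buds, at 1.2 ± 0.104 for Stage C against Stage B, a call that was lost under library totals (0.7).

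**Figure D2:**
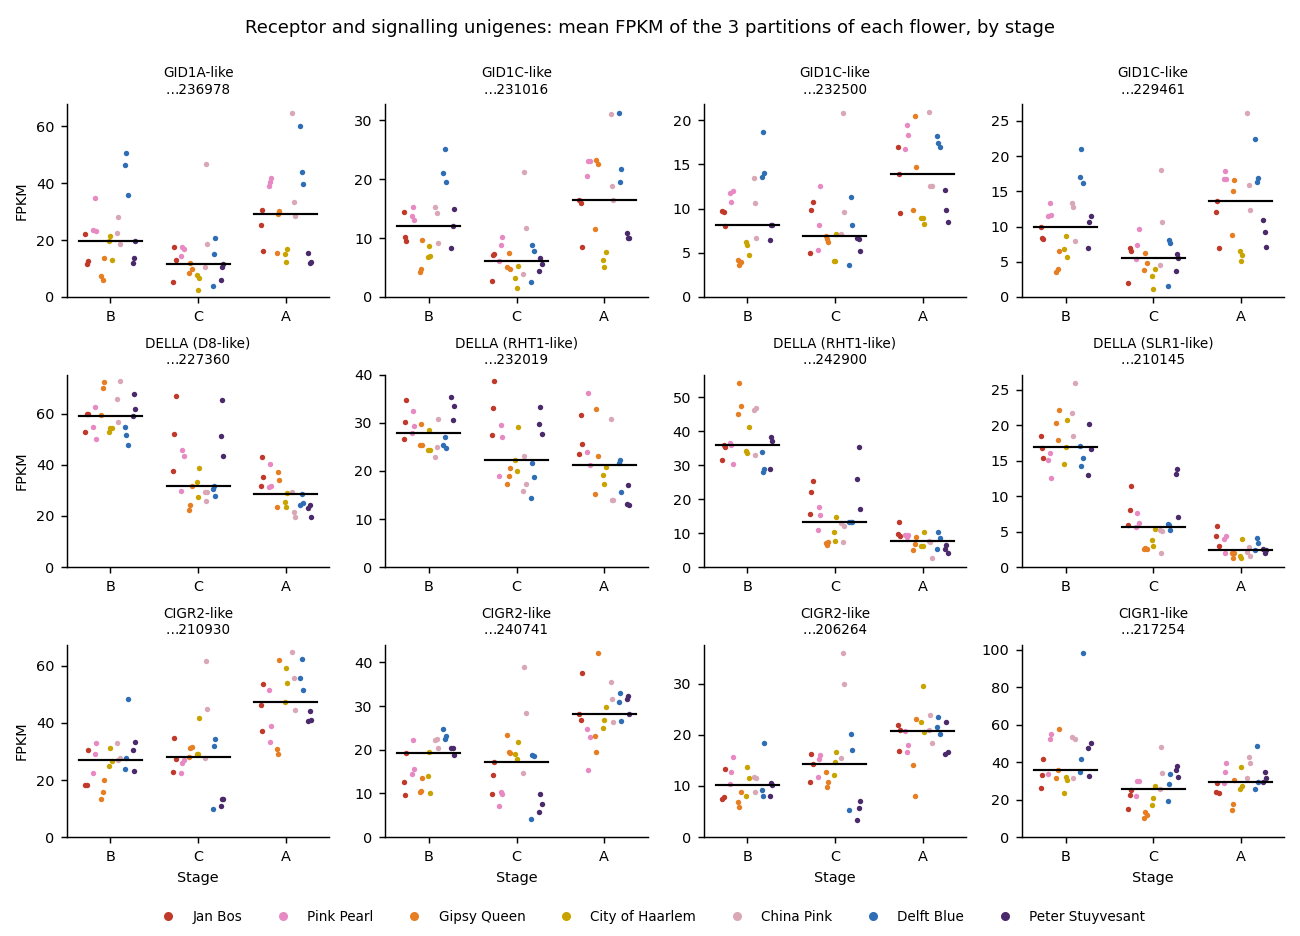
FPKM per flower of 12 receptor and signalling unigenes at Stages B, C and A. Points are flowers coloured by cultivar and lines are medians over 21 flowers. The 4 GID1 unigenes had their highest median at Stage A, and the DELLA unigenes Cluster-20417.242900 and Cluster-20417.210145 had all Stage A flowers below all Stage B flowers.

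The remaining signalling unigenes matched the chitin-inducible gibberellin-responsive proteins CIGR1 and CIGR2, GRAS-family factors first described in rice. Of 35 tested, 3 were upregulated and 3 downregulated at Stage A against Stage B, against 13.5% and 18.0% of all unigenes. The 3 upregulated all matched CIGR2. Cluster-20417.210930 had 13.5, 26.9 and 48.5 FPKM at Stage B, 9.93, 28.1 and 61.7 FPKM at Stage C, and 29.1, 47.4 and 64.7 FPKM at Stage A. The stages overlapped, but it was higher at Stage A than at Stage B in 7 of 7 cultivars. Its log2 fold change was 1.59 ± 0.113 (edgeR adjusted p 1.28e-17), next to 1.61 ± 0.131 for Cluster-20417.206264 and 1.41 ± 0.122 for Cluster-20417.240741. All 3 fell short of the threshold under library totals, at 0.94, 0.96 and 0.76. The 3 downregulated CIGR unigenes were Cluster-20417.294553 (-3.14), Cluster-20417.266392 (-1.61) and Cluster-20417.253994 (-1.09 ± 0.212), of which only Cluster-20417.253994 had a median above 1 FPKM at any stage (9.73, 4.6 and 2.81 FPKM at Stages B, C and A).

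The CIGR1 unigenes with the highest levels were not called between stages under TMM. Cluster-20417.217254 had medians of 36, 25.9 and 29.5 FPKM at Stages B, C and A, Cluster-20417.220660 had 34.8, 21.4 and 27.7 FPKM, and Cluster-20417.220659 had 24.8, 16 and 30.2 FPKM. The direction of the first 2 for Stage A against Stage B depended on scaling, with log2 fold changes of 0.27 and 0.43 under TMM against -0.37 and -0.22 under library totals.

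In metabolism, ent-kaurene oxidase and several of its relatives fell after the green-bud stage. The 16 ent-kaurene oxidase and oxidase-like unigenes summed to 29.5, 39 and 60.3 FPKM (lowest, median, highest flower) at Stage B, 7.88, 13 and 23.8 FPKM at Stage C, and 5.78, 10.9 and 14.8 FPKM at Stage A, so that all Stage C and all Stage A flowers lay below all Stage B flowers. Of 12 tested, 7 were downregulated and 1 upregulated at Stage A against Stage B (median -1.98), and 6 and 0 at Stage C against Stage B (median -1.3). Of all unigenes, 18.0% and 13.5% were downregulated and upregulated at Stage A, and 14.8% and 7.70% at Stage C. The ent-kaurene oxidase unigene Cluster-20417.235413 had 11.4, 18.1 and 29.5 FPKM at Stage B, 1.88, 4.47 and 12.8 FPKM at Stage C, and 0.66, 2.16 and 4.91 FPKM at Stage A. Its summed CPM at Stage A were 0.146 times those at Stage B. The log2 fold change was -2.23 ± 0.105 for Stage A (edgeR adjusted p 1.5e-24) and -1.53 ± 0.101 for Stage C (adjusted p 1.65e-18), each against Stage B.

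Most oxidase-like unigenes matched the rice cytochrome P450 CYP701A7, a relative of ent-kaurene oxidase. Cluster-20417.272390 had medians of 7.2, 1.63 and 0.983 FPKM at Stages B, C and A (-2.31 ± 0.227 for Stage A against Stage B, edgeR adjusted p 5.75e-14), and Cluster-20417.163777 had 0.413, 0.0467 and 0.02 FPKM (-3.58 ± 0.357, adjusted p 2.89e-14). Cluster-20417.249558 had medians of 6.26, 2.93 and 2.44 FPKM and was not called under TMM (-0.65), but was under library totals (-1.3). The single upregulated one, the oxidase-like 3 unigene Cluster-20417.117408, had medians of 0.363, 0.443 and 0.997 FPKM and a log2 fold change of 1.71 ± 0.393 (adjusted p 0.000155). The neighbouring Cluster-20417.272389, Cluster-20417.272390 and Cluster-20417.272391 were downregulated together and may be pieces of a single gene. The first enzyme, ent-copalyl diphosphate synthase, was near the detection limit, with 3 unigenes that summed to at most 0.433 FPKM in any flower and 1 that could be tested.

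The 2 enzymes between and after these steps carry descriptions that the word list leaves out, and 10 such unigenes were looked at separately, chosen after their levels had been seen. At Stage A against Stage B, 5 of the 10 were downregulated and 1 upregulated, against 18.0% and 13.5% of all unigenes. The ent-kaurenoic acid oxidase unigene Cluster-20417.235426 had medians of 104, 22.4 and 10.8 FPKM at Stages B, C and A (-2.63, edgeR adjusted p 8.8e-25). The ent-kaurene synthase unigene Cluster-20417.262200 had 22.2, 9.26 and 5.96 FPKM (-1.18, adjusted p 1.85e-08).

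The gibberellin 20-oxidases, which carry out the multistep oxidation before the last activation step, split into unigenes with opposite stages. At Stage C against Stage B 4 of 21 were upregulated and 5 downregulated, against 7.70% and 14.8% of all unigenes. The 20-oxidase 2 unigene Cluster-20417.171980 had 0, 0.23 and 0.89 FPKM at Stage B, 0.617, 3.83 and 9.77 FPKM at Stage C, and 0.0533, 0.483 and 2.73 FPKM at Stage A. It peaked in coloured buds in 7 of 7 cultivars, with a log2 fold change of 5.1 ± 0.321 for Stage C against Stage B (edgeR adjusted p 7.25e-19) and -2.4 ± 0.25 for Stage A against Stage C (adjusted p 7.24e-11). The 20-oxidase 1-A unigene Cluster-20417.297061 showed the reverse, with 0, 0.247 and 1.07 FPKM at Stage C, against 1.24, 3.27 and 10.6 FPKM at Stage B. All its Stage C flowers were below all its Stage B flowers (-3.35 ± 0.304, adjusted p 8.12e-16). The others upregulated at Stage C were Cluster-20417.315258 (2.36 ± 0.422), Cluster-20417.315260 (2.62) and Cluster-20417.93182 (3.76), and the others downregulated were Cluster-20417.165275 (-4.7), Cluster-20417.288622 (-2.55), Cluster-20417.96836 (-1.93) and Cluster-20417.288623 (-1.28).

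The 3-oxidases, which make the active hormone, had low levels in most flowers. Cluster-20417.175715, whose Nr match is a gibberellin 3-oxidase of *Allium fistulosum*, had medians of 1.57, 0.413 and 1.9 FPKM at Stages B, C and A, and was upregulated at Stage A against Stage C (1.6 ± 0.33, edgeR adjusted p 0.000129). A second unigene with a 3-oxidase description, Cluster-20417.334351, has a distant Swiss-Prot match and an Nr match to an AOP1-like dioxygenase of another kind, so its place in the pathway is uncertain. At Stage A it spread from 0 to 1150 FPKM around a median of 10.6 FPKM, against 0 counts in 18 of 21 Stage B flowers. Its log2 fold change for Stage A against Stage B was 9.95 ± 1.75 (adjusted p 3.09e-06), with an adjusted p of 0.134 without the third flower of each condition. The highest value was that of the second Stage A flower of ‘Gipsy Queen’, against at most 368 FPKM elsewhere.

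Among the gibberellin 2-oxidases, the inactivating enzymes, all calls between coloured and green buds were downward. At Stage C against Stage B, 8 of 32 were downregulated and 0 upregulated (median -0.5), against 14.8% and 7.70% of all unigenes (median -0.23). At Stage A against Stage B 6 were downregulated and 3 upregulated, against 18.0% and 13.5% of all unigenes. Cluster-20417.152958 had medians of 3.39, 0.127 and 0.407 FPKM at Stages B, C and A, with a log2 fold change of -4.42 ± 0.403 for Stage C against Stage B (edgeR adjusted p 6.09e-14). Cluster-20417.212375 had medians of 3.61, 1.26 and 0.717 FPKM and Cluster-20417.45338 had 4.05, 0.88 and 0.633 FPKM, and both were downregulated at Stage A against Stage B (-2.08 ± 0.18 and -2 ± 0.191). Their flowers overlapped between stages, and both were below 1 FPKM in some flowers at every stage.

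Against that direction, Cluster-20417.155328 had medians of 0.223, 0.313 and 1.18 FPKM at Stages B, C and A and was upregulated at Stage A against Stage B (2.94 ± 0.364, edgeR adjusted p 6.46e-10), as were Cluster-20417.319549 (1.88) and Cluster-20417.189260 (1.43), both of which were no longer called under library totals. The most abundant 2-oxidase unigenes were steadier. Cluster-20417.239575 had medians of 16.8, 11.4 and 6.79 FPKM and was not called under TMM (-0.48) but was under totals (-1.13). Cluster-20417.204738 had 7.24, 6.57 and 6.25 FPKM, with a log2 fold change of 0.59 under TMM and -0.06 under totals.

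**Figure D3:**
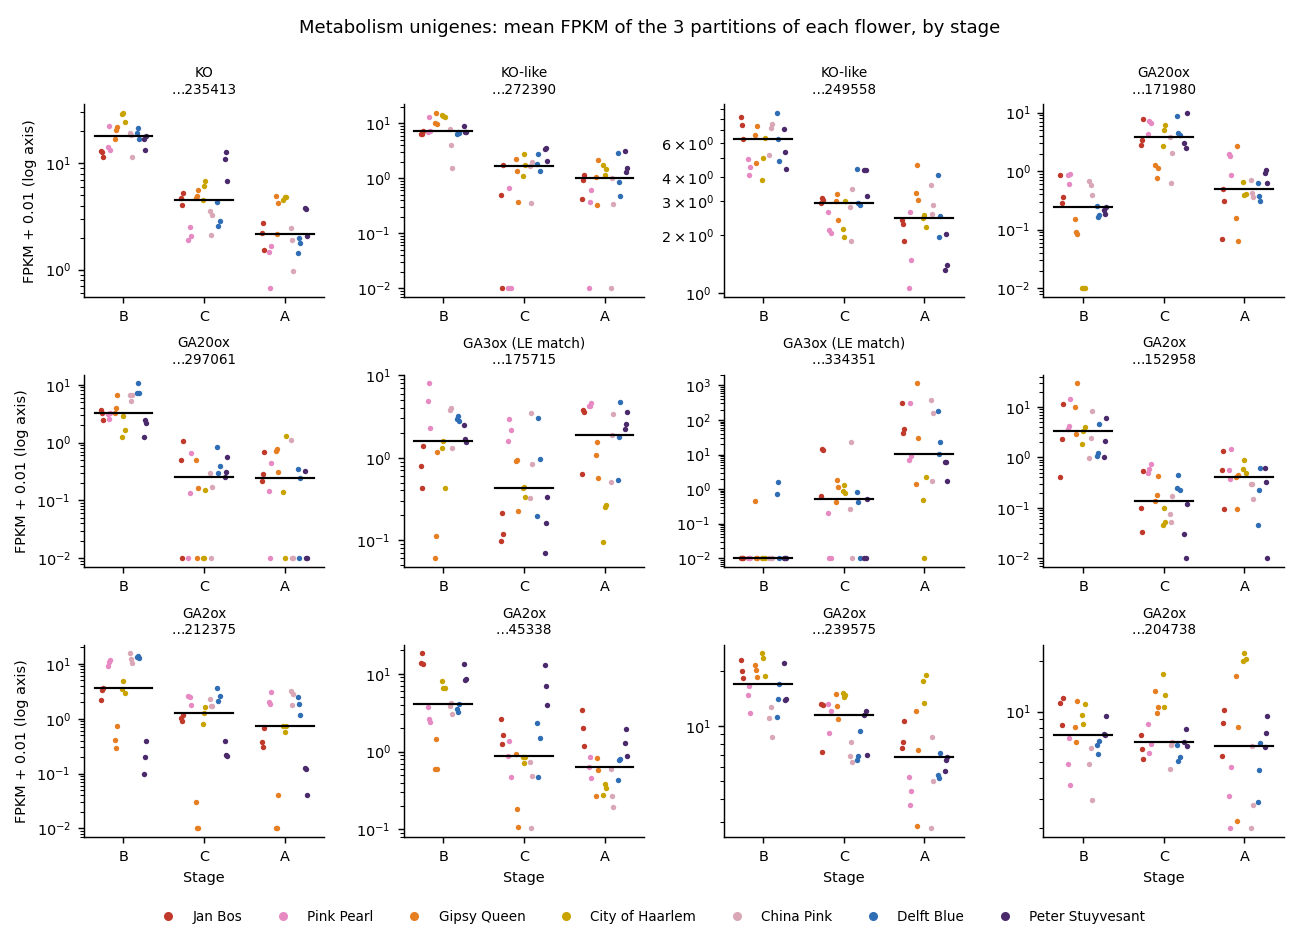
FPKM per flower of 12 metabolism unigenes at Stages B, C and A on a log axis. Points are flowers coloured by cultivar and lines are medians over 21 flowers. The ent-kaurene oxidase unigene Cluster-20417.235413 was lower at Stage A than at Stage B in every flower, and the 20-oxidase unigene Cluster-20417.171980 had its highest median at Stage C.

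Other genes in or near the pathway were counted from lists chosen by description, under TMM alone. At Stage A against Stage B, 13.5% of all unigenes were upregulated and 18.0% downregulated. Of the snakin-like proteins without the word gibberellin, 3 of 10 tested were upregulated and 2 downregulated at Stage A against Stage B, and the highest, the Snakin-2 unigenes Cluster-20417.159591 and Cluster-20417.159586, had medians of 5.68, 506 and 3460 FPKM and of 4.07, 740 and 3160 FPKM at Stages B, C and A. Of 41 growth-regulating factors tested, transcription factors of growing tissue, 0 were upregulated and 22 downregulated (median -1.42). The same comparison called 5 and 0 of 22 SPINDLY and SECRET AGENT unigenes (glycosyltransferases of DELLA proteins), 4 and 1 of 8 GAMYB unigenes, 2 and 10 of 21 phytochrome-interacting factors, 0 and 9 of 32 SCL3 and IDD unigenes (DELLA partners), 0 and 2 of 5 PRE-type small bHLH unigenes, and 3 and 0 of 5 geranylgeranyl diphosphate synthases, upregulated and downregulated in each case. No unigene was described as SLEEPY or SNEEZY, the F-box proteins that bind DELLA.

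The partition comparisons asked where in the perianth these genes were expressed, over 63 libraries at each stage. The perianth tube was upregulated against the mean of outer and inner lobes for 6 of 121 unigenes tested at Stage B and downregulated for 4, against 2.38% and 2.05% of all unigenes. At Stage C the counts were 13 and 1 of 114, against 3.98% and 2.85%, and at Stage A 14 and 7 of 114, against 7.30% and 4.65%. No signalling unigene was called at any stage under TMM, while metabolism unigenes had 6 and 2 calls at Stage B, 10 and 0 at Stage C and 10 and 2 at Stage A, and GASA unigenes 0 and 2, 3 and 1, and 4 and 5. Under library totals the Stage A counts were 17 and 3, with 1 signalling unigene among them. Among all unigenes at Stage A, 61.1% of the calls were upregulated in the tube under TMM and 78.4% under totals.

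**Figure D4:**
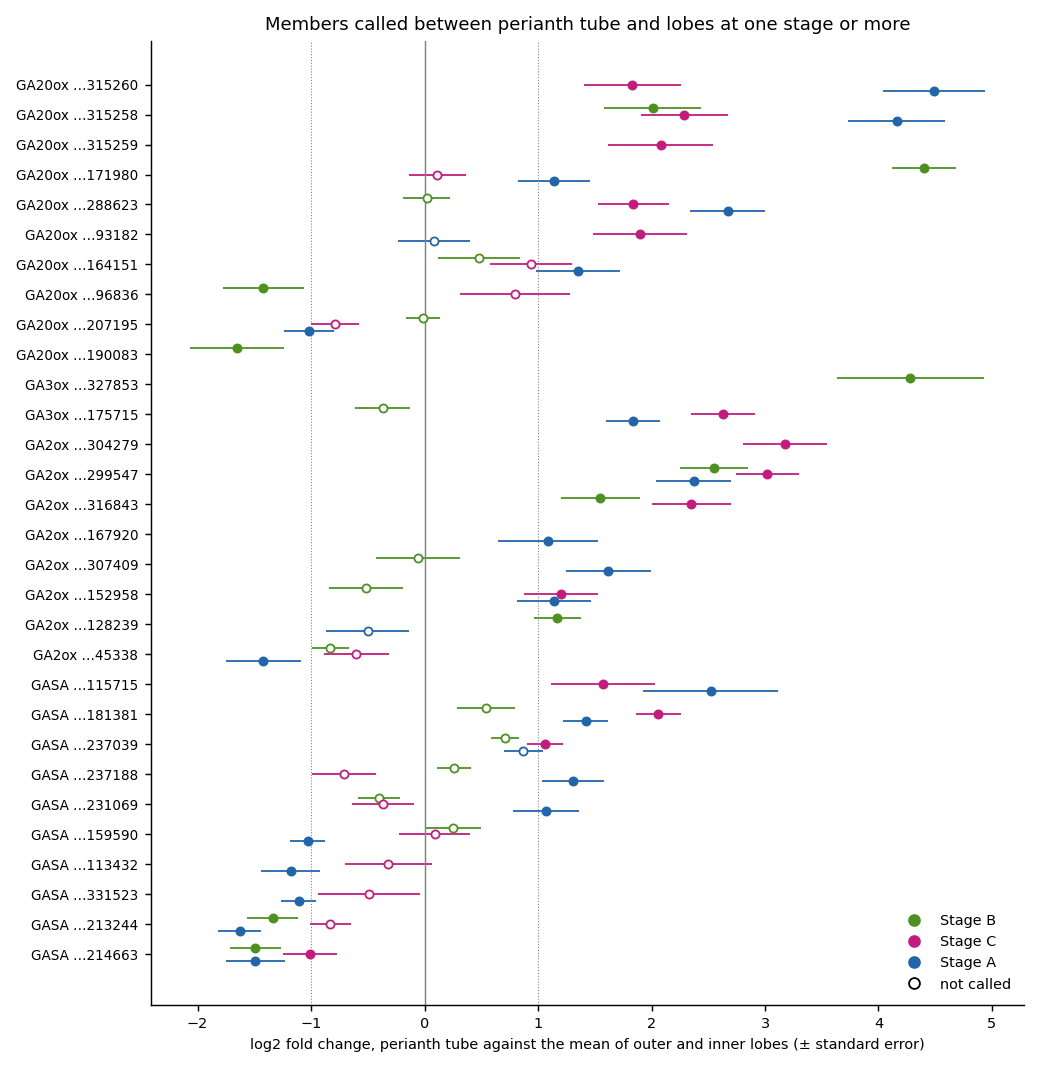
Log2 fold change of the perianth tube against the mean of outer and inner lobes at Stages B, C and A, with standard errors, for the 30 unigenes called at any stage. Filled symbols are calls. Values above 0 are higher in the tube, and most metabolism unigenes lie there, while several GASA unigenes lie below 0 at Stage A.

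The 20-oxidase 2 unigene Cluster-20417.171980 was mostly found in the tube in green buds. Tube libraries had 0, 0.6 and 2.56 FPKM (lowest, median, highest of 21) at Stage B, against 0, 0 and 0.26 FPKM in outer lobes and 0, 0 and 0.12 FPKM in inner lobes, and the tube was above both lobes in 18 of 21 flowers. The log2 fold change was 4.4 ± 0.282 (edgeR adjusted p 2.78e-23). In coloured buds, where this unigene was highest, the partitions overlapped, with medians of 3.46 FPKM in the tube, 2.75 FPKM in outer lobes and 4.03 FPKM in inner lobes.

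Other 20-oxidases were higher in the tube at later stages. Cluster-20417.315258 had 0.54, 3.07 and 19.7 FPKM in Stage C tubes, against 0, 0.26 and 28.4 FPKM in outer lobes and 0, 0 and 2.62 FPKM in inner lobes, and the tube was above both in 20 of 21 flowers. It was upregulated in the tube at Stage B (2.01 ± 0.428), Stage C (2.29 ± 0.382) and Stage A (4.16 ± 0.429, edgeR adjusted p 1.07e-12). Cluster-20417.315260 (4.49 ± 0.446, adjusted p 9.77e-13) and Cluster-20417.288623 (2.67 ± 0.328, adjusted p 2.68e-10) were likewise higher in the tube at Stage A. All were at low levels, and Cluster-20417.315260 had medians of 0.68 FPKM in Stage A tubes and 0 FPKM in both kinds of lobe.

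The 2-oxidase and 3-oxidase unigenes followed. Cluster-20417.299547 (2-oxidase 6) was higher in the tube at Stage B (2.55 ± 0.303), Stage C (3.02 ± 0.278, edgeR adjusted p 3.04e-15) and Stage A (2.37 ± 0.328), and at Stage C it had a median of 1.1 FPKM in tubes against 0 FPKM in outer and 0.12 FPKM in inner lobes. Cluster-20417.304279 (2-oxidase 2) had 0, 1.91 and 4.45 FPKM in Stage C tubes, against 0, 0 and 1.68 FPKM in outer lobes (3.18 ± 0.37, adjusted p 4.1e-11). The 3-oxidase unigene Cluster-20417.175715 was not called in green buds, with medians of 1.48 FPKM in tubes, 1.72 FPKM in outer lobes and 1.66 FPKM in inner lobes. At Stage A it had medians of 3.95, 0.87 and 0.84 FPKM in tubes, outer lobes and inner lobes, with the tube above both in 20 of 21 flowers, and it was upregulated in the tube at Stage C (2.63 ± 0.285, adjusted p 6.47e-12) and Stage A (1.84 ± 0.237, adjusted p 2.27e-09). The 3-oxidase 1 unigene Cluster-20417.327853 was called at Stage B (4.28 ± 0.648, adjusted p 4.69e-06) on 46 counts in all libraries together.

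Against that, a 2-oxidase and some 20-oxidases were lower in the tube. Cluster-20417.190083 (-1.65) and Cluster-20417.96836 (-1.42), both 20-oxidase 2, were downregulated there at Stage B, and Cluster-20417.45338 (-1.42) and the 20-oxidase unigene Cluster-20417.207195 (-1.02) at Stage A. The call of Cluster-20417.207195 was lost under median-ratio factors and library totals.

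GASA unigenes were called in both directions between tube and lobes. The GASA12 unigene Cluster-20417.237039, highest in green buds, had mean levels of 1110 FPKM in Stage B tubes against 674 FPKM in lobes, 1020 against 463 FPKM at Stage C, and 230 against 125 FPKM at Stage A, and was called at Stage C (1.06 ± 0.161). The 2 GASA6 unigenes were upregulated in the tube at Stage A, Cluster-20417.237188 by 1.31 and Cluster-20417.231069 by 1.07. GASA2 (Cluster-20417.181381) had 0.87, 4.75 and 9.71 FPKM in Stage C tubes against 0, 0.74 and 6.67 FPKM in outer and 0, 0.66 and 2.38 FPKM in inner lobes (2.06 ± 0.199, edgeR adjusted p 4.57e-13). In all but 1 of the 21 flowers the tube was above both lobes.

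Of the GASA unigenes upregulated at Stage A against Stage B, Cluster-20417.331523, Cluster-20417.113432 and Cluster-20417.159590 were downregulated in the tube of open flowers. Cluster-20417.199643 (-0.99), Cluster-20417.159587 (-0.96), Cluster-20417.157280 (-0.72), Cluster-20417.299901 (-0.52), Cluster-20417.87897 (-0.47) and Cluster-20417.159584 (0.37) did not pass the threshold, and Cluster-20417.275672 was not tested there. Cluster-20417.331523 had 75, 430 and 1110 FPKM in Stage A tubes, against 235, 912 and 1900 FPKM in outer lobes and 214, 847 and 2060 FPKM in inner lobes, and the tube was below both lobes in 21 of 21 flowers. Its log2 fold change was -1.11 ± 0.153 (edgeR adjusted p 2.82e-08) and fell short of the threshold under library totals (-0.88). The same held for Cluster-20417.113432 (-1.18 ± 0.259, totals -0.96) and Cluster-20417.159590 (-1.03 ± 0.153, totals -0.81, median-ratio factors -0.99, and -0.98 without the second Stage A flower of ‘Gipsy Queen’). The 2 unigenes with an asparagus GASA9-type match were lower in the tube as well. Cluster-20417.213244 had 9.1, 34.1 and 83.4 FPKM in Stage B tubes, against 26.1, 110 and 212 FPKM in outer and 11.8, 84.6 and 164 FPKM in inner lobes, and was downregulated in the tube at Stage B (-1.34 ± 0.226) and Stage A (-1.63 ± 0.187, adjusted p 1.6e-10). Cluster-20417.214663 was downregulated there at Stage B (-1.49 ± 0.228), Stage C (-1.01, but -0.99 under median-ratio factors and -0.89 under totals) and Stage A (-1.49).

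Some signalling unigenes differed evenly without passing the fold threshold. The DWARF8-type DELLA unigene Cluster-20417.227360 had a mean of 80.2 FPKM in Stage B tubes against 48.7 FPKM in lobes and was above both lobes in 21 of 21 flowers, with a log2 fold change of 0.65. The RHT-1 unigene Cluster-20417.232019 had 39.8 against 22.6 FPKM and was also above both in 21 of 21 flowers (0.74).

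Markers of the removed organs moved with the tube. The summed level of 66 unigenes described by stamen or pollen words was 515 to 5280 FPKM in Stage A tubes (median 1380) and 405 to 1610 FPKM in Stage A lobes (median 851), and 28 of 47 tested were upregulated in the tube there, 23 of 46 at Stage C and 14 of 44 at Stage B. Of all unigenes, 7.30%, 3.98% and 2.38% were upregulated in the tube at Stages A, C and B. The 10 class C and D homeotic unigenes of stamens and carpels summed to medians of 30.9, 27.2 and 26.3 FPKM in tubes at Stages B, C and A, against 6.28, 4.38 and 4.57 FPKM in lobes, and none of either list was at 0 in every library of a partition. The most abundant of the 10, the AGAMOUS unigene Cluster-20417.178664, had means of 23.4 FPKM in tubes and 3.28 FPKM in lobes. Not all 10 went that way: Cluster-20417.277090 had 0.529 against 0.518 FPKM, and Cluster-20417.407273 had 0.0073 against 0.0582 FPKM. The part of these organs in the tube results was not tested.

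No unigene of the set was called between outer and inner lobes. The main fit, whose counts follow, did not pair the lobes of a flower. On its own it could miss small differences within flowers. A fit with the flower as a block, which paired the lobes, also called 0 unigenes of the set at each stage. With edgeR, 0 of 121 unigenes were called at Stage B, 0 of 114 at Stage C and 0 of 114 at Stage A, against 0.214%, 0.00441% and 0.000887% of all unigenes. An unadjusted p under 0.05 was reached by 14, 11 and 2 of them, and DESeq2 also called 0 at each stage.

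The cultivar comparisons set each cultivar against the mean of the other 6, over all stages. ‘City of Haarlem’ had 56 of the 157 called (35.7%, against 26.8% of all unigenes), ‘Peter Stuyvesant’ had 42 (26.8%, against 25.1%) and ‘Gipsy Queen’ had 42 (26.8%, against 24.6%). In ‘Jan Bos’ 35 were called (22.3%, against 23.5%), in ‘China Pink’ 34 (21.7%, against 22.5%), in ‘Delft Blue’ 31 (19.7%, against 22.0%) and in ‘Pink Pearl’ 29 (18.5%, against 19.7%). All but ‘City of Haarlem’ lay near the share among all unigenes. More members were called upregulated than downregulated in each of the 7 cultivars, as among all unigenes. There were 29 upregulated and 5 downregulated in ‘China Pink’ (19.5% and 3.05% of all unigenes), 30 and 1 in ‘Delft Blue’ (19.8% and 2.2%), 39 and 17 in ‘City of Haarlem’ (20% and 6.81%) and 24 and 18 in ‘Peter Stuyvesant’ (19.7% and 5.41%).

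Some cultivar calls were unigenes found nearly only in some cultivars. Of the 184 unigenes, 134 had counts in all 7 cultivars, and 50 had 0 counts in at least 1 of them. These 50 include unigenes that were not tested. In ‘Pink Pearl’ 25 had 0 counts, of which 14 were tested, and in ‘City of Haarlem’ 12, of which 5 were tested. The share at 0 counts was not taken over all unigenes. With a joint assembly of all cultivars, a difference in level cannot be told apart from different alleles that were assembled as separate unigenes. In ‘Jan Bos’, a 20-oxidase 1 unigene, Cluster-20417.239582, had 2.51, 4.69 and 8.57 FPKM over 9 flowers, against medians of at most 0.37 FPKM in the others (6.02 ± 0.142, edgeR adjusted p 1.95e-36). The GAI-type DELLA unigene Cluster-20417.290273 was lowest in ‘Jan Bos’, with a median of 0.2 FPKM against 2.27 to 5.21 FPKM in the others (-3.74 ± 0.181, adjusted p 1.09e-23).

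In ‘City of Haarlem’ the CIGR1 unigene Cluster-20417.150621 had 825 counts, against 0 to 2 counts in each other cultivar, and Cluster-20417.289559, another CIGR1 unigene, had 937 against 0 to 18. In ‘Gipsy Queen’ the CIGR1 unigene Cluster-20417.239640 had 0.117, 0.65 and 1.3 FPKM, below every flower of the other 6 cultivars, whose medians were 4.09 to 8.88 FPKM (-3.23 ± 0.201, edgeR adjusted p 9.32e-20). In ‘Peter Stuyvesant’ the 2-oxidase 6 unigenes Cluster-20417.189761 and Cluster-20417.128238 had medians of 3.62 and 4.81 FPKM, against at most 0.0967 and 0.54 FPKM in the others (5.39 and 3.82). The GASA12 unigene Cluster-20417.60033 had 0 counts in all 9 ‘Pink Pearl’ flowers, against 25 to 324 counts in each other cultivar.

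‘China Pink’ and ‘Delft Blue’ were both high in the same pair of unigenes. The oxidase-like 3 unigene Cluster-20417.268874 had medians of 1.71 FPKM in ‘China Pink’ and 1.41 FPKM in ‘Delft Blue’, against at most 0.197 FPKM in the others (3.43 ± 0.175 and 3.23, each against the other 6 cultivars). The CIGR1 unigene Cluster-20417.267883 had medians of 8.68 and 8.61 FPKM there and 7.89 FPKM in ‘Jan Bos’, against at most 0.357 FPKM in the other 4. The 5 downregulated unigenes of ‘China Pink’ were Cluster-20417.237188 (-1.19), Cluster-20417.231069 (-1.31), Cluster-20417.45338 (-1.1), Cluster-20417.288623 (-1.54) and Cluster-20417.199826 (-4.21), and the 1 of ‘Delft Blue’ was Cluster-20417.288623 (-1.01). Between ‘China Pink’ and ‘Delft Blue’ themselves edgeR called 0 of 157, against 0.316% of all unigenes. An unadjusted p under 0.05 was reached by 10, and DESeq2 called 0.

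The size of the stage difference also varied with cultivar. An F-test of the difference between cultivars in Stage A against Stage B called 42 of 157 unigenes at an adjusted p below 0.05, against 18.1% of all unigenes, namely 10 GASA, 17 metabolism and 15 signalling unigenes. With each replicate number left out in turn the count was 14 to 23. The 18.1% is that of the full fit, and the share of all unigenes in the smaller fits is not given here. In 15 of the 42, all 3 Stage A flowers lay above all 3 Stage B flowers in at least 1 cultivar and below them in at least 1 other. The same was not counted over all unigenes, and the 42 had been picked for varying, so the 15 describe these unigenes only. The 20-oxidase 1 unigene Cluster-20417.204006 (edgeR adjusted p 1.45e-07) had 0.54, 0.31 and 0.457 FPKM in Stage A flowers of ‘Gipsy Queen’, against 2.54, 2.34 and 3.89 FPKM in its Stage B flowers. In ‘Pink Pearl’ it had 0.17, 0.18 and 0.14 FPKM at Stage A, against 0.03, 0.0267 and 0.0367 FPKM at Stage B. Those ‘Pink Pearl’ levels rest on few counts. The 2-oxidase 6 unigene Cluster-20417.138951 (adjusted p 4.13e-06) had 0.53, 0.103 and 0.217 FPKM at Stage A in ‘Gipsy Queen’, against 2.33, 3.09 and 3.64 FPKM at Stage B, and 0.593, 0.307 and 0.78 FPKM at Stage A in ‘Jan Bos’, against 0.0367, 0.183 and 0.12 FPKM at Stage B.

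The abundant GASA unigenes differed between cultivars in size rather than direction. Cluster-20417.299901 had 1700, 793 and 579 FPKM in the Stage A flowers of ‘China Pink’, 26.1, 26.2 and 77.9 FPKM in those of ‘City of Haarlem’ and 70.7, 127 and 124 FPKM in those of ‘Peter Stuyvesant’. Cluster-20417.159590 had 2390, 2540 and 3510 FPKM in Stage A flowers of ‘Gipsy Queen’ and 911, 578 and 504 FPKM in those of ‘Delft Blue’. For these unigenes, and for Cluster-20417.159587 and Cluster-20417.159584, every Stage A flower was above every Stage B flower within each of the 7 cultivars. The reverse held within each of the 7 for GASA12 (Cluster-20417.237039), GASA6 (Cluster-20417.237188), ent-kaurene oxidase (Cluster-20417.235413) and the DELLA unigenes Cluster-20417.210145 and Cluster-20417.224129.

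Coloured buds of ‘Peter Stuyvesant’ were compared with those of the other cultivars through the difference in Stage C against Stage B. The paper reports that over the whole transcriptome Stage C of this cultivar correlated much more strongly with Stage B than with Stage A. In the other cultivars Stages C and A had the stronger correlation. How far the unigenes of this set follow that pattern was not tested. Of 157 unigenes, 5 had a higher and 5 a lower log2 fold change in ‘Peter Stuyvesant’ than the mean of the other 6, against 2.55% and 1.29% of all unigenes. The ent-kaurene oxidase unigene Cluster-20417.235413 had 11, 12.8 and 6.85 FPKM in Stage C flowers of ‘Peter Stuyvesant’, against 16.9, 13.4 and 18.1 FPKM in its Stage B flowers, while the 18 Stage C flowers of the other cultivars had 1.88 to 6.85 FPKM (difference 1.4 ± 0.283, edgeR adjusted p 0.00115). The 2-oxidase unigene Cluster-20417.45338 had 12.8, 7.01 and 3.99 FPKM at Stage C, against 13.2, 8.29 and 8.47 FPKM at Stage B, and was the single one of the 10 whose 3 Stage C flowers all lay outside the 0.0933 to 2.62 FPKM of the other 18 (1.62 ± 0.395, adjusted p 0.00767). Both kept much of their green-bud level in coloured buds of this cultivar.

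The same held for the DELLA unigene Cluster-20417.210145, with 13.1, 13.8 and 7 FPKM at Stage C, against 13, 20.2 and 16.6 FPKM at Stage B (1.07 ± 0.317, edgeR adjusted p 0.0365). The other 2 with a higher log2 fold change were GASA6 (Cluster-20417.231069, 3.11 ± 0.746), with 133, 126 and 121 FPKM at Stage C and 9.95, 15.7 and 15.1 FPKM at Stage B, and the 2-oxidase unigene Cluster-20417.212375 (2.66 ± 0.567), which had at most 0.383 FPKM at either stage. The 5 with a lower one were the CIGR2 unigenes Cluster-20417.210930 (-1.62 ± 0.331), Cluster-20417.240741 (-1.54 ± 0.355) and Cluster-20417.206264 (-1.57 ± 0.382), GASA1 (Cluster-20417.199643, -3.26 ± 0.965) and GASA2 (Cluster-20417.181381, -2.11 ± 0.578). Cluster-20417.210930 had 10.8, 13.2 and 13.3 FPKM in its Stage C flowers against 30.5, 23 and 33.2 FPKM at Stage B, and Cluster-20417.199643 had 2.18, 4.55 and 28.1 FPKM against 1, 0.997 and 2.52 FPKM, while the other 18 Stage C flowers had a median of 104 FPKM. The count of 10 fell to 0 without the second flower of each condition, and to 6 and 9 without the first and the third. The shares of all unigenes in these smaller fits are not given here.

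**Figure D5:**
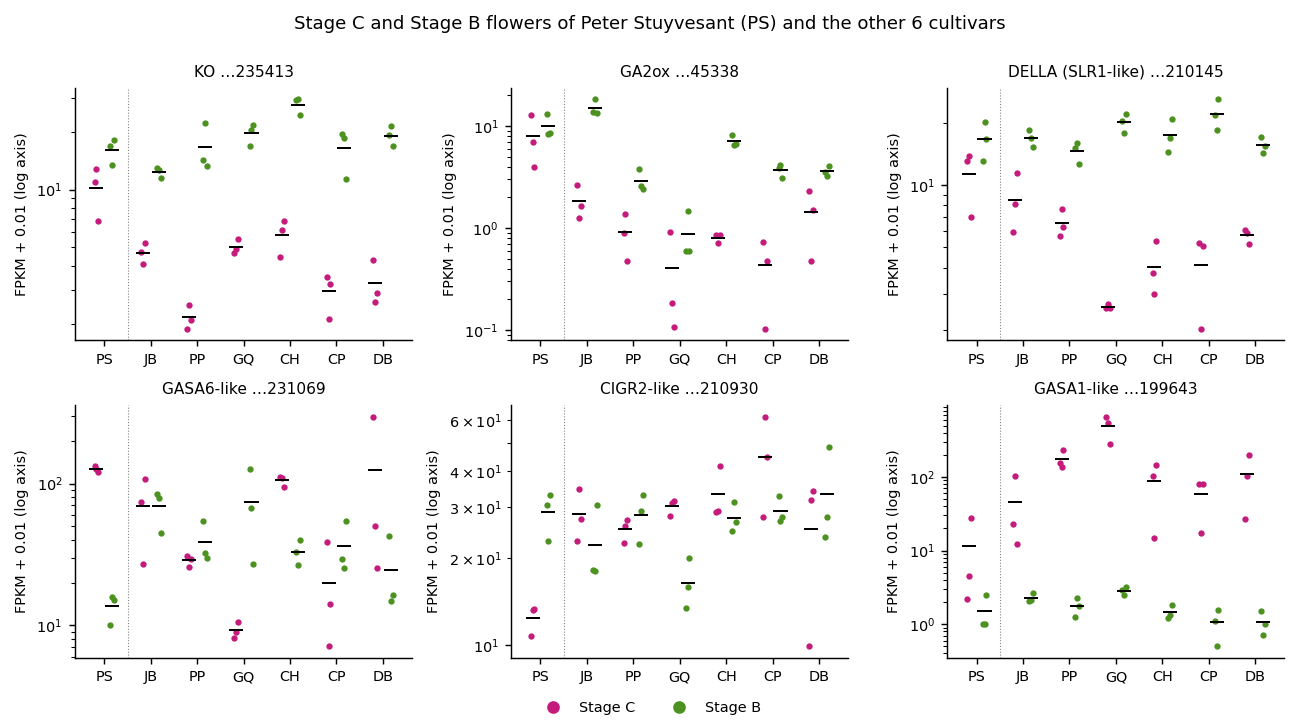
FPKM per flower of 6 unigenes called in the ‘Peter Stuyvesant’ comparison, at Stage C and Stage B, in ‘Peter Stuyvesant’ and in the other 6 cultivars. Points are flowers and bars are means. In Cluster-20417.45338 the 3 Stage C flowers of ‘Peter Stuyvesant’ lie above the 18 of the other cultivars.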

How the data were processed

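Total RNA of each partition was sequenced as paired-end poly-A libraries on the Illumina NovaSeq X Plus platform. The authors assembled the clean reads of all libraries with Trinity, removed redundancy with CORSET, kept the longest transcript of a cluster as a unigene, aligned reads with Bowtie and estimated expected counts with RSEM. Versions of these tools and the use of strand in counting are not given in the sources used here. The deposited expected counts were rounded to whole numbers here before testing. The authors also deposited FPKM values, made from the same counts with the unigene length and library total, and these were used for levels only. Unigene names are the authors' best database matches. Their table of mapping rates was not used.

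Members and lists were chosen with earlier results of these data known. For stages and cultivars, the 3 partitions of a flower were summed and 63 flowers were fitted with cell means of cultivar by stage. Partitions were compared within a stage over 63 libraries, with cultivar as a covariate and no flower block. In these comparisons the replicate block listed among the alternatives was the flower. The test was edgeR's quasi-likelihood F-test (edgeR 4.0.16, R 4.3.3) with TMM factors, on unigenes that reached 10 counts in 3 or more flowers (or libraries), and p-values were adjusted over all unigenes tested. The test of differences between cultivars used the adjusted p alone. The fits for Stage A against Stage B and for the tube at Stage A were run on simulated counts. These were drawn with the same spread for every unigene and without cultivar differences or a shared flower effect. The check therefore does not cover the cultivar contrasts or the pairing of partitions. Alternatives were DESeq2 1.42.0, median-ratio factors, other count filters, every library as a replicate, a replicate block, leaving out each replicate number and, chosen after seeing the data, library totals without scaling, an earlier edgeR fit and leaving out the second Stage A flower of ‘Gipsy Queen’. The rule for naming took the 8 unigenes with the highest mean FPKM in each group. It also took the 2 called in each direction with the smallest p in each comparison, and all members of a count of 5 or fewer. The text does not name every unigene that the rule took. Other named unigenes were chosen after their values were seen.

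Partitions of a flower are paired by the dissection of a single flower, and over 56710 unigenes their deviations from group means had a median correlation of 0.483, with 186 pairs over 0.1 and 3 at or under it. The same number at another stage (0.0134) or in another cultivar (0.0495) marked no shared flower. Replicate libraries correlated at 0.767 to 0.9821, and none were identical. Nothing says that the 3 flowers came from separate plants, so p-values measure the spread between these flowers. A floor of 3 counts over a group was used where a group had 0 counts, and it covers counting error only.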

Additional observations from a re-analysis of the deposited data

Results flagged for a closer look

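Each result here is a difference between cultivars in a stage contrast. The difference between cultivars in Stage A against Stage B passed the edgeR F-test for the GASA unigenes Cluster-20417.237039 (adjusted p 0.0402), Cluster-20417.159590 (0.00703), Cluster-20417.159587 (0.00149) and Cluster-20417.299901 (0.00612), for the ent-kaurene oxidase unigene Cluster-20417.235413 (0.0337) and for the 2-oxidase unigene Cluster-20417.45338 (0.0323). In Cluster-20417.159590, the Stage B flowers of ‘Delft Blue’ had 15.3, 17.4 and 15.4 FPKM, above the Stage B median of 1.94 FPKM over all cultivars.

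The contrast of Stage C against Stage B in ‘Peter Stuyvesant’ differed from the mean of the other 6 cultivars for the GASA unigenes Cluster-20417.199643 (edgeR adjusted p 0.0359), Cluster-20417.231069 (0.00676) and Cluster-20417.181381 (0.0209), for the metabolism unigenes Cluster-20417.235413 (0.00115), Cluster-20417.45338 (0.00767) and Cluster-20417.212375 (0.00201), for the CIGR2 unigenes Cluster-20417.210930 (0.0012), Cluster-20417.240741 (0.00459) and Cluster-20417.206264 (0.00778), and for the DELLA unigene Cluster-20417.210145 (0.0365).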

How the results depend on the processing

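Over 75 named results and 913 values under alternatives, 880 kept their direction and side of the threshold, 26 lost the call, 3 gained it and 4 reversed. The reversals were the uncalled Stage A against Stage B values of Cluster-20417.204738 (-0.06), Cluster-20417.217254 (-0.37), Cluster-20417.220660 (-0.22) and Cluster-20417.232019 (-0.4), all under library totals, where the median of all unigenes moved to -0.8. Among counts of called unigenes, ‘Pink Pearl’ had 45 with DESeq2 against 29, the cultivar difference in Stage A against Stage B had 80 with every library as a replicate against 42 and 14 to 23 without a replicate, and the ‘Peter Stuyvesant’ comparison had 17 with DESeq2 and 16 with every library as a replicate against 10, and 0 to 9 without a replicate. ‘China Pink’ against ‘Delft Blue’ had 2 with every library as a replicate, outer against inner lobes 0 to 1 without a replicate at Stage B and 2 without the count filter at Stage C, each against 0. A replicate block gave 56, 37 and 32 calls for Stage A against B, C against B and A against C, 38 for the cultivar difference, 12 for ‘Peter Stuyvesant’ and 20 for the tube at Stage A, and moved no count by over 1.5 times. Without the second Stage A flower of ‘Gipsy Queen’ the counts were 57 for Stage A against B, 30 for A against C, 44 for ‘Gipsy Queen’ and 19 for the tube at Stage A. The single downregulated unigene of ‘Delft Blue’ was lost under 6 alternatives. The shares of all unigenes called under these alternatives are not given here, and the cause of these shifts was not tested. Unigenes below about 1 FPKM rest on few counts per flower, and a missing call there does not show equal levels.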
